A study of Mus musculus with 12 samples.

Results

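The loci described here were open-chromatin sites of mouse dorsal root ganglia that appeared in the peak lists of sham-operated ganglia of both genotypes and in neither list of injured ganglia. They were chosen by the presence of peak summits: the summits of 4 lists were pooled, neighbours lying within 200 bp of each other on a chromosome were chained into loci, and a locus was kept when it held a summit of the wild-type sham list and of the Silc1-/- sham list and none of either injured list. This gave 1181 loci of 78381, which is 1.51% of all loci. Of these, 615 (0.785% of all loci) had no injured summit within 1 kb and 343 (0.438%) had none within 10 kb. Presence in the lists was the measured value that selected them, so their absence from injured lists and their scores are given as descriptions.

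ATAC-seq, which tags accessible DNA with a transposase loaded with adapters, had been run on 12 libraries, each from 6 fresh lumbar ganglia (L4-L6) per extraction: 3 each of wild-type (Silc1+/+) sham, wild-type injured, Silc1-/- sham and Silc1-/- injured mice. Injury was a crush of the sciatic nerve at mid-thigh. The labels name purchased C57black6 Ola HSD males without saying which libraries they gave, and neither the age of the mice nor the interval between injury and dissection is given, nor how the Silc1-/- allele was made or how many animals gave each library. For each group 1 summit list was analysed, so no spread between animals and no test between groups could be computed, read depth is unknown, and agreement of the 2 sham lists, which differ in genotype, is the only repeat. The sham lists held 27279 summits (wild type) and 48332 (Silc1-/-), and the injured lists 43841 (wild type) and 35815 (Silc1-/-). Because the tissue was whole ganglion, fewer cells with an open site and a less open site in each cell cannot be told apart. In all 4 lists were 29 of 196 loci near sensory neuron markers and 51 of 173 near Schwann cell and satellite glia markers, beside 20 of 79 near skeletal muscle genes and 14347 of all 78381 loci, so these counts do not single out the ganglion's cell types.

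Open chromatin marks promoters, where transcription starts, and distal elements such as enhancers, which are bound by transcription factors and are often active in only some cell types. Crush of a peripheral axon sets off a transcriptional response in sensory neuron cell bodies, in which genes of the resting, transmitting state are turned down and growth-associated genes are turned up. Sham surgery without the crush is the control for it. A peak list records a site only where the signal passes the caller's threshold, so a weak site can be missing from a list while it is still partly open.

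Reference sequence was available for promoter windows, each running from 250 bases before to 50 bases after a RefSeq transcription start (GRCm38.p6, the build called mm10). The windows below each hold a sham summit of a locus described later, with no injured summit within 1 kb, and are shown because they place these loci on gene starts. They are written 5′ to 3′ on the strand of the gene, with the 11 bases centred on each sham summit in capitals, or fewer where the window ends, as at the wild-type summit of Ptprr. The windows lie at chr2:136714289-136714588 (minus strand) for Gm32659, chr1:77515039-77515338 (minus) for Epha4, chr11:101260317-101260616 (plus) for Wnk4, chr4:122961139-122961438 (minus) for Mfsd2a, chr10:116018113-116018412 (plus) for Ptprr and chr16:33966989-33967288 (minus) for Umps.
Gm32659: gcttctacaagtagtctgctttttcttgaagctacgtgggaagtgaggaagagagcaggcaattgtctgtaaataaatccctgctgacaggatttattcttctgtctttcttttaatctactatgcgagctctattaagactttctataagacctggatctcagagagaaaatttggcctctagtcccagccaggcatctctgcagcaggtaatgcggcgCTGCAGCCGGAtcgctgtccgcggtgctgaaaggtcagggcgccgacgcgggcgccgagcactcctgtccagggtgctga
Epha4: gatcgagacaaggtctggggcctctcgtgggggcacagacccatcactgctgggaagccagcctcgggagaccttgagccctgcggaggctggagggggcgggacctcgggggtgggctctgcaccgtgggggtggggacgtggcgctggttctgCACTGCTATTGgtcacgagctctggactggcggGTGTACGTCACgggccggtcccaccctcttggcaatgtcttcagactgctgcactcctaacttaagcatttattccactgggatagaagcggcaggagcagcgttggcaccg
Wnk4: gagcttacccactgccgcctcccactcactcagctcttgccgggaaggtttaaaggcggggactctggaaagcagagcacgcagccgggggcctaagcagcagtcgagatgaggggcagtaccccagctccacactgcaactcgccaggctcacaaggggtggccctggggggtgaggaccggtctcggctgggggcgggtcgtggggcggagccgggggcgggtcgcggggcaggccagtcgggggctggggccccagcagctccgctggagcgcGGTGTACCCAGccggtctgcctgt
Mfsd2a: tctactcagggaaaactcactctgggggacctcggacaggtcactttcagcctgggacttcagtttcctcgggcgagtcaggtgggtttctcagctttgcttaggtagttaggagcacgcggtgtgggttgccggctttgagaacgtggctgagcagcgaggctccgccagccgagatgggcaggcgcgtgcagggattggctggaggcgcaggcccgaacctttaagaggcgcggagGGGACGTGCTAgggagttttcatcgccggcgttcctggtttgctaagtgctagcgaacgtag
Ptprr: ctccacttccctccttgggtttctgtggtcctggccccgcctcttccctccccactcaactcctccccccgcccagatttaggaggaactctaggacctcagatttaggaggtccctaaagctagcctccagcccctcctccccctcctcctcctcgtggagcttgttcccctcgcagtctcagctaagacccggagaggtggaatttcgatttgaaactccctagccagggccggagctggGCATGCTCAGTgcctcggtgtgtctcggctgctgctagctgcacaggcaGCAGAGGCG
Umps: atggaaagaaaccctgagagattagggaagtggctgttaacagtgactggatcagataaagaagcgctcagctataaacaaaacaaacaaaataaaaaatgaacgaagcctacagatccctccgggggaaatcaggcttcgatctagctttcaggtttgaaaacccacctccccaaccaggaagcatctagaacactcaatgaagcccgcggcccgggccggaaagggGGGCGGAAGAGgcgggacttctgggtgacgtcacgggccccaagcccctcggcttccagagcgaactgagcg
Relative to the start site, the wild-type and Silc1-/- sham summits lay at -90 and -57 in Epha4 and at 46 and -3 in Ptprr. In Mfsd2a both fell on the same base, at -7, so a single stretch is in capitals. In Gm32659 (-25 and 68), Wnk4 (31 and 62) and Umps (-17 and 108) the Silc1-/- summit lay beyond the window, and only the wild-type summit is marked. G and C made up 51.0% of the Gm32659 window and 70.7% of the Wnk4 window, with the other 4 between these values.

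Sham-only loci ranged from close beside an injured summit to far from any. The distance to the nearest injured summit was under 1 kb for 566 loci (47.9%, 95% Wilson interval 45.1 to 50.8), 1 to 10 kb for 272 (23.0%, 20.7 to 25.5) and over 10 kb for 343 (29.0%, 26.5 to 31.7), with a median of 1277 bp. The closest bin, 201 to 300 bp, held 244 loci, the bin from 1 to 2 kb held 58, and 135 lay 20 to 50 kb from an injured summit. These bins widen with distance, so their counts cannot be compared as densities. The near share also depends on the joining distance. With joining at 100 bp, 485 of 1401 sham-only loci had no injured summit within 1 kb, and at 500 bp 669 of 800. Of the 566 loci with an injured summit within 1 kb, 384 had summits of both injured lists there, 105 of the wild-type injured list alone and 77 of the Silc1-/- injured list alone. For these loci an injured summit was present beside the sham summits, and the rule separated them by position. Intervals here and below cover counting error only and treat loci as independent, which neighbouring loci are not.

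**Figure D1:**
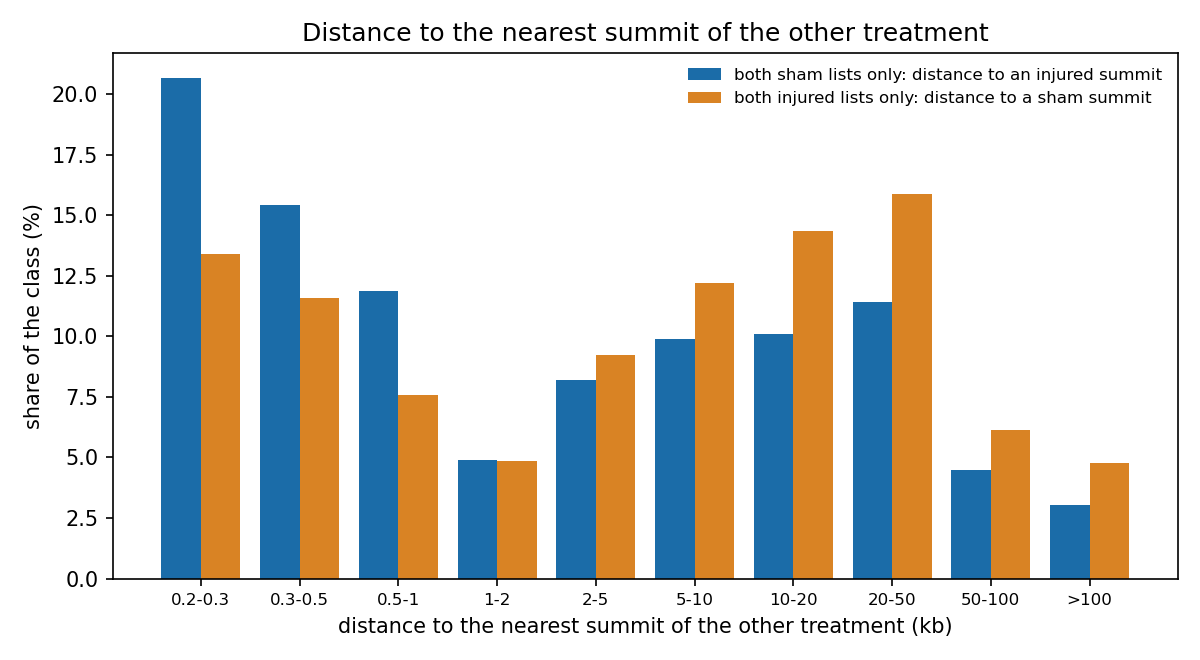
Share of each class (vertical axis, percent) by distance to the nearest summit of the other treatment (horizontal axis, kb), for the 1181 loci of both sham lists only (blue) and the 2130 loci of both injured lists only (orange). The bins are of unequal width and widen with distance, so bar heights are not densities. The share under 1 kb is larger for the sham-only loci.

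The mirror class, with summits of both injured groups and of no sham group, was larger and more isolated in the lists as deposited, which differ in length. It held 2130 loci, of which 41.2% (39.1 to 43.3) had no sham summit within 10 kb. At equal list lengths, 423 of 1087 sham-only loci had no injured summit within 10 kb. The mirror class was not recounted at equal lengths, so the part of list length in this contrast was not tested. Read against the loci that could have qualified, 6.14% of the 19232 loci in both sham lists lacked an injured summit, and 9.90% of the 21508 loci in both injured lists lacked a sham summit. The sham-only class was also small among the 6 ways in which exactly 2 lists can share a locus. Pairs that include the short wild-type sham list held 1867 loci with wild-type injured, 1181 with Silc1-/- sham and 907 with Silc1-/- injured, and the loci alone within 10 kb were 32.1%, 29.0% and 27.6% of them. The wild-type sham list therefore shared fewer such loci with the other sham list than with the other wild-type list, although the Silc1-/- sham list was the longest. The Silc1-/- sham list shared 4741 loci with wild-type injured alone and 3431 with Silc1-/- injured alone. Of these, 51.5% and 52.4% were alone within 10 kb. These shares were not tested, since each list is 1 observation.

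Sham-only loci were mostly weak. Summits carry a score deposited by the authors, on a −log10 scale. It moves with depth, so scores of different lists are not on a common scale. The lowest score across lists, used below to rank, bin and summarise loci, mixes lists and is a rough guide. The lower of the 2 sham scores had a median of 3.01 for sham-only loci and was under 5 for 1001 of the 1181 loci. For the 14347 loci in all 4 lists the lowest of 4 scores had a median of 7.20. Loci of exactly 2 lists had low median lower scores for the other pairs of lists too. The medians were 3.54 for wild-type sham with wild-type injured, 2.92 for wild-type sham with Silc1-/- injured and 2.95 for both injured lists. Silc1-/- sham had 3.18 with wild-type injured and 3.01 with Silc1-/- injured. A low score was therefore not particular to the sham-only class. Scores of weak summits took few values: 156 sham-only loci had exactly 2.92 in the wild-type sham list and 117 had exactly 2.32, and the 5 commonest scores covered 540 loci. Orders among weak loci thus contain many ties. In wild-type sham the scores ran from 1.34 to 110.4 (median 3.54), and in Silc1-/- sham from 1.35 to 130.8 (median 4.12).

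Among all loci of both sham lists, the share without an injured summit fell with the score. It was 26.3% (23.1 to 29.8) of 661 loci with a lower sham score up to 2, 19.4% (17.7 to 21.1) of 2075 from 2 to 3, 12.2% (10.9 to 13.6) of 2126 from 3 to 4 and 7.30% (6.30 to 8.45) of 2273 from 4 to 5. Above that it was 2.80% (2.19 to 3.58) from 5 to 7, 1.02% (0.755 to 1.39) of 4007 from 10 to 20, 0.760% (0.507 to 1.14) from 20 to 50 and 1.73% (0.842 to 3.53) above 50, where 7 of 404 loci were counted. With none allowed within 10 kb, the share went from 7.87% (6.05 to 10.2) at scores up to 2 to 0.0499% (2 of 4007) at 10 to 20. No such locus was found among 3028 with scores from 20 to 50 or among 404 above 50. The mirror class showed the same course: 35.8% (33.3 to 38.3) of both-injured loci with scores up to 2 lacked a sham summit, and 1.10% (0.821 to 1.47) of those from 10 to 20, with 3.47% (1.95 to 6.11) above 50. In both treatments, the share of loci seen in 1 treatment alone was highest at the lowest scores. Whether depth or the caller's threshold has a part in this was not tested.

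**Figure D2:**
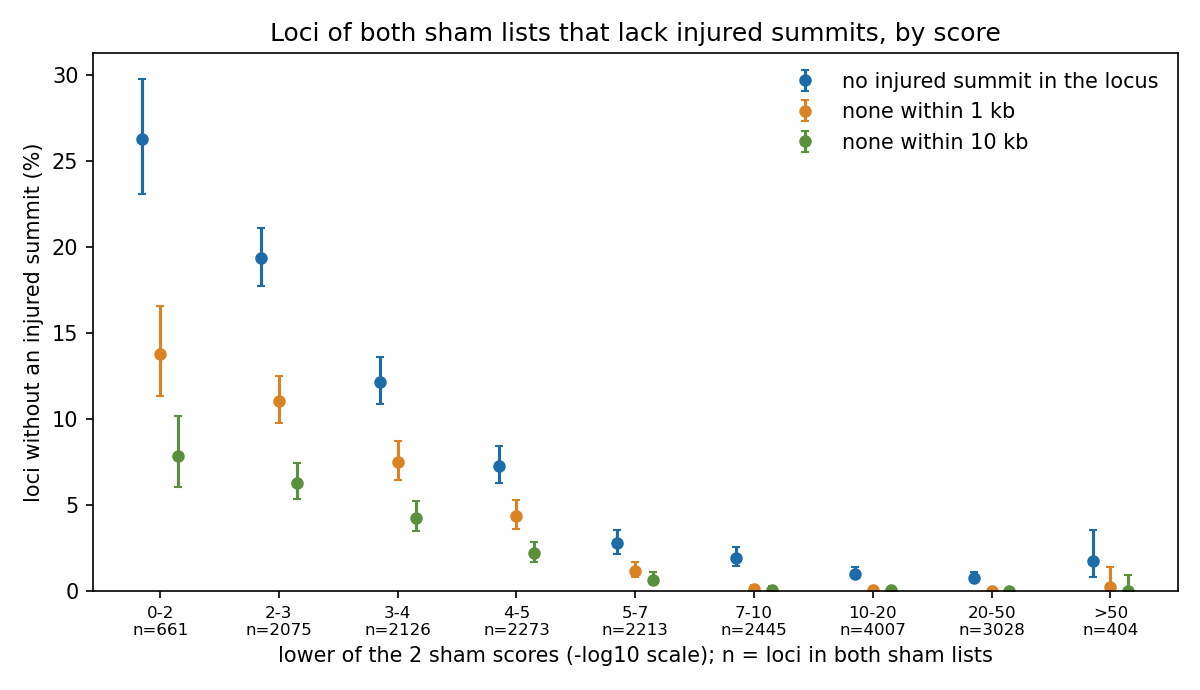
Percent of loci in both sham lists that had no injured summit in the locus (blue), within 1 kb (orange) and within 10 kb (green), by the lower of the 2 sham scores (−log10 scale), with 95% Wilson intervals and the number of loci under each bin. All 3 shares fall from the left up to a score of 20, and the share with none within 10 kb is at or near 0 above a score of 7.

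High-scoring sham-only loci were nearly all close to an injured summit. Of 71 loci with a lower sham score of at least 10, 66 had an injured summit within 1 kb, 3 at 1 to 10 kb and 2 farther away. The highest lay 50472 bp from the long noncoding RNA gene 1190028D05Rik on chromosome 8, at position 52306139. It had a score of 110.4 in wild-type sham and 116.1 in Silc1-/- sham, and a wild-type injured summit with a score of 102.4 lay 397 bp away. Inside Gm46604 on chromosome 17, at 12017730, the sham scores were 107.2 and 130.8, and a wild-type injured summit of 97.1 lay 428 bp away. Inside Sult2a3, a sulfotransferase gene on chromosome 7, the locus at 14087027 had sham scores of 89.0 and 84.9, with a Silc1-/- injured summit of 118.8 at 215 bp. At these 3 places the injured summit was under 1 kb from the sham summits. In Thada on chromosome 17 the locus at 84462573 (70.1 and 91.1) had its nearest injured summit, of 84.6, at 1419 bp. These loci were chosen after their values had been seen.

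The joining threshold of 200 bp set how close an injured summit could lie. Among the sham-only loci with the closest injured summit were loci 421288 bp from Gm5984 on chromosome 5 (position 6231861, sham scores 27.8 and 36.9, injured summit at 201 bp), 282718 bp from Chl1 on chromosome 6 (103227866, 2.92 and 3.63, 201 bp) and 1824 bp from Tob2 on chromosome 15 (81860150, 7.94 and 8.73, 202 bp). A locus in Suclg2 on chromosome 6 (95658466, 6.33 and 3.01) and a locus 128848 bp from Pudp on chromosome 18 (50438808, 23.5 and 36.9) also had an injured summit at 202 bp. Just inside it, loci with an injured summit exactly 200 bp from a sham summit were joined and so left out, among them loci in Atg4a on the X chromosome (141150877, sham scores 15.6 and 18.6), in Itpripl2 on chromosome 7 (118491516, 7.66 and 5.45) and 24079 bp from Gm52481 on the Y chromosome (90718650, 13.8 and 7.16).

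**Figure D3:**
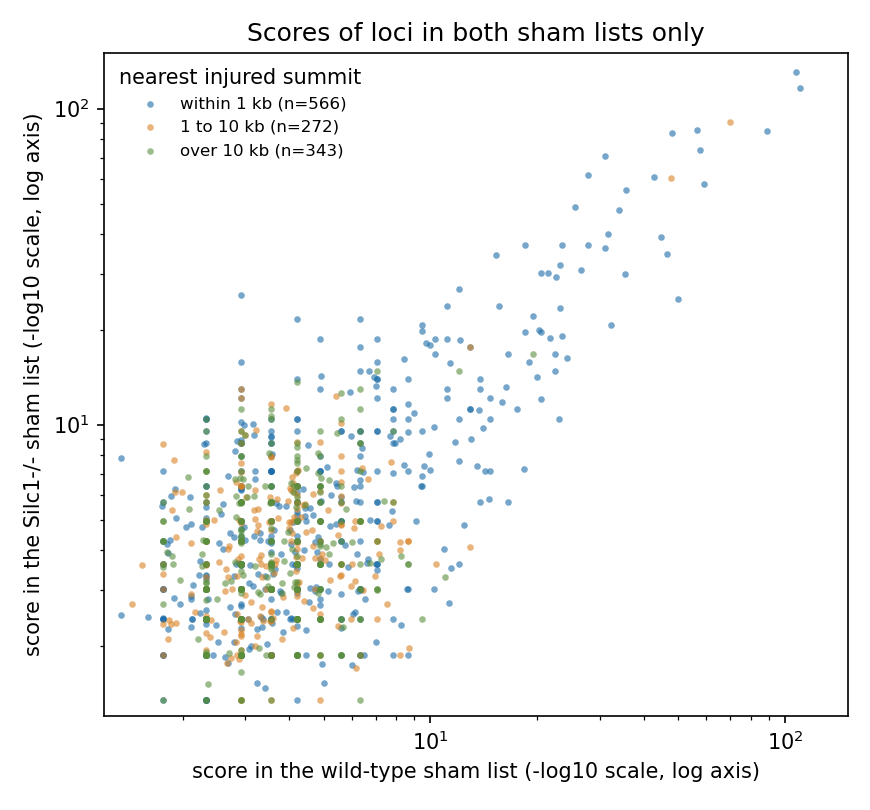
Score of each sham-only locus in the wild-type sham list (horizontal, log axis) and in the Silc1-/- sham list (vertical, log axis), coloured by distance to the nearest injured summit. Loci with an injured summit within 1 kb (blue, 566) reach above 100 in both lists, while those farther than 10 kb (green, 343) stay under 20 in both, and vertical and horizontal rows of points are tied low scores.

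Among the 343 loci with no injured summit within 10 kb, the 12 with the highest lower score on the autosomes and X were named. Some lay inside genes of several kinds, and others lay outside genes, up to 397726 bp from the nearest. The first was in Spata5, which encodes an AAA ATPase (gene ID 57815, chromosome 3, 37419903 to 37579096), at position 37481616. Its summits in the 2 sham lists were 1 bp apart, with scores of 19.5 in wild type and 16.7 in Silc1-/-, and the nearest injured summit was 61352 bp away. The next lay 22416 bp outside Postn, which encodes the matrix protein periostin (gene ID 50706, chromosome 3, 54359267 to 54391041), at 54413457. Its scores were 12.02 and 14.8, with summits 17 bp apart and 59939 bp to the nearest injured summit. These 2 loci were the members of this far group with a lower score of at least 10.

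The third locus, 105775 bp from Chd6, a chromatin remodeller (chromosome 2, position 161214861), scored 7.86 in wild-type sham and 9.55 in Silc1-/- sham. Another lay far from any gene, 397726 bp from Gm40604 (chromosome 10, 15300285), with 7.08 and 14.8. A locus in Snap25, which encodes a SNARE protein of synaptic vesicle release (gene ID 20614, chromosome 2, 136713439 to 136782428), lay at 136714270, also 68 bp from an end of the long noncoding RNA gene Gm32659 whose start window is printed above. It scored 6.33 in wild-type sham and 8.73 in Silc1-/- sham, and no injured summit was nearer than 34241 bp. The locus also lay within 1 kb of the lower-numbered end of Snap25. In Cntnap4, a neuronal adhesion protein of the neurexin family (chromosome 8, 112571696, 1898 bp from an end of the gene), the sham summits were 1 bp apart with scores of 6.33 and 7.16, and the nearest injured summit was 79809 bp away. A locus 21579 bp from Efna5, which encodes the axon guidance ligand ephrin-A5 (chromosome 17, 62902896), scored 6.33 and 8.73, with an injured summit at 18538 bp.

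The remaining 5 were in Arhgap15, a Rac GTPase-activating protein (chromosome 2, 43902798, 6.33 and 13.0, injured summit at 96182 bp), in the long noncoding RNA gene 1700025N23Rik (chromosome 6, 39067383, 6.33 and 11.2, 50851 bp), in Hkdc1, a hexokinase domain protein (chromosome 10, 62411136, 6.33 and 9.56, 12993 bp), in Smyd4, a SET and MYND domain protein (chromosome 11, 75402367, 7.41 and 5.75, 26765 bp), and in the long noncoding RNA gene Gm29683 (chromosome 7, 70331913, 7.86 and 5.67, 14434 bp). In 10 of these 12 loci the 2 sham summits were within 50 bp of each other. The member farthest from any injured summit, chosen after its values were seen, lay on the Y chromosome at 37337024, 523780 bp away, with low scores of 2.92 and 1.87.

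At gene ends, meaning up to 1 kb from either end of a coding gene or a long noncoding RNA gene, lay 285 sham-only loci (24.1%, 21.8 to 26.7). Only the nearest gene end of a locus was used, and for 230 of the 285 it was that of a coding gene. Over all loci the share was 24.2% (23.9 to 24.5), in both injured lists only it was 14.7% (13.3 to 16.3) and in all 4 lists 55.6%. The other pairs with the wild-type sham list had 25.2% (23.3 to 27.2, with wild-type injured) and 20.4% (17.9 to 23.1, with Silc1-/- injured). The share differed between the near and far members: 32.7% (28.9 to 36.7) with an injured summit within 1 kb, 17.3% (13.3 to 22.2) at 1 to 10 kb and 15.5% (12.01 to 19.7) beyond. Loci with low scores were also compared apart, without matching scores within them. Of both-sham loci with a lower sham score up to 5, 11.4% (10.1 to 12.9) of 2055 at gene ends and 15.1% (14.1 to 16.1) of 5080 elsewhere lacked an injured summit. With none within 10 kb these shares were 2.43% (1.85 to 3.19) and 5.39% (4.81 to 6.05). Inside genes lay 60.3% (57.5 to 63.0) of sham-only loci and 58.3% (58.0 to 58.7) of all loci.

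Loci whose nearest gene end was a coding one within 1 kb, with no injured summit within 1 kb, were ranked by lower score. The locus in Snap25 is thus left out, because an end of Gm32659 was nearer to it. The highest locus lay at Epha4, an ephrin receptor of axon guidance (gene ID 13838, chromosome 1, 77367182 to 77515107). It was 38 bp outside the gene, at 77515145, with scores of 5.59 in wild-type sham and 10.2 in Silc1-/- sham. The nearest injured summit, of the wild-type list, was 1211 bp away. Sham-only loci also lay 226 bp from 1700011L22Rik (chromosome 8, 79210204, 5.59 and 5.67, injured summit at 16176 bp) and 92 bp inside Wnk4, a kinase that regulates ion cotransporters (chromosome 11, 101260629, 5.14 and 5.39, 6814 bp). At Mfsd2a, a lysophospholipid transporter of the blood-brain barrier (gene ID 76574, chromosome 4, 122946850 to 122961194), both sham summits were at 122961195, 1 bp outside the gene. The scores there were 4.89 and 8.82, and the nearest injured summit, of Silc1-/-, was 5549 bp away.

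At Ptprr, a protein tyrosine phosphatase (gene ID 19279, chromosome 10, 116018188 to 116274932), the locus at 116018360 scored 4.20 in wild-type sham and 13.6 in Silc1-/- sham, and the nearest injured summit was 16351 bp away. The others chosen by this rule were 86 bp inside Ticam2, an adaptor of Toll-like receptor signalling (chromosome 18, 46574447, 4.89 and 4.29, 22251 bp), 108 bp inside Umps, the enzyme that completes uridine monophosphate synthesis (chromosome 16, 33966930, 4.20 and 4.97, 15871 bp), and 110 bp outside Nrip3 (chromosome 7, 109757946, 4.20 and 4.29, 5685 bp). All 8 lower scores were under 6.

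The highest-scoring summit of 70 sham-only loci (5.93%) fell in a RefSeq promoter window. The counts were 86 of 2130 loci (4.04%) of both injured lists only and 5798 of 14347 (40.4%) in all 4 lists. The share over all loci was not computed, so 5.93% cannot be called high or low. Of the 70 sham-only loci, 42 had an injured summit within 1 kb and 28 had none. Their promoters were rich in G and C, with a median of 62.3% (lowest 41.3%, highest 80.7%). The median was 63.0% at loci of all 4 lists, 60.8% at loci of both injured lists only and 52.7% over all 32851 windows. The median number of CG dinucleotides in the 300 bases was 20.5, and also 20.5 at loci of both injured lists only. It was 24.0 at loci of all 4 lists and 7 over all windows.

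Short motifs were searched on both strands as exact letters. The GC box GGGCGG, a site of SP and KLF factors, was in 50 of the 70 sham-only promoters (71.4%). It was in 74.7% of promoters at loci of all 4 lists, 60.5% at loci of both injured lists only and 35.7% of all windows. The CCAAT box, CCAAT, was in 19 (27.1%), against 45.0% at loci of all 4 lists, 27.9% at loci of both injured lists only and 37.4% of all windows. The E-box CACGTG was in 10 (14.3%), against 11.2%, 5.81% and 7.15% in the same order. The AP-1 motif TGANTCA was in 4 (5.71%), against 3.98%, 8.14% and 7.81%. The cAMP response element TGACGTCA was in 0 of 70, which allows a share of up to 4.29%, against 4.19%, 2.33% and 1.79%. The ETS motif CCGGAAG was in 9 (12.9%), against 22.8%, 11.6% and 8.86%, and the TATA box TATAAA in 4 (5.71%), against 5.17%, 9.30% and 13.6%. A match describes letters only, and these shares come from few promoters. Of the windows printed above, Epha4 held CCAAT and GGGCGG, Mfsd2a CCAAT, and Ptprr and Wnk4 GGGCGG. Umps held GGGCGG, TGACGTCA and TATAAA. The windows of Umps, Wnk4 and Gm32659 do not hold the highest-scoring summit and are not among the 70.

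Of the 70, 15 had no injured summit within 10 kb. Beside Ptprr, 6 had the highest-scoring summit within 20 bases of the start site. These included Emp2, a membrane protein of the PMP22 family (chromosome 16, 10313961, scores 3.54 and 4.29, injured summit at 52935 bp), Il17rb, an interleukin receptor subunit (chromosome 14, 30008899, 3.04 and 5.90, 13769 bp), Dctd, deoxycytidylate deaminase (chromosome 8, 48110021, 4.89 and 3.63, 43934 bp), and Rragb, a Rag GTPase of amino acid sensing (X chromosome, 153139975, 4.20 and 1.87, 102401 bp). The others were Tmem47 (X chromosome, 81070628, 4.20 and 2.42, 104526 bp) and Gm51458 (chromosome 7, 127637124, 4.20 and 3.01, 22080 bp). The locus named for Il17rb also lay 2 bp outside another coding gene, Chdh, which held a further sham-only locus at 30011962. A locus 94 bases before the start of Myl9, a myosin light chain of smooth muscle (chromosome 2, 156775370), scored 3.98 in wild-type sham and 4.58 in Silc1-/- sham and lay 45511 bp from an injured summit. These were chosen after their values were seen.

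Near genes of the lists for neurons, glia, vessels, fibroblasts and immune cells, sham-only loci were few. Loci inside a listed gene or up to 50 kb outside it were counted for its list, and the share of them that was sham-only was read against the 1.51% of all loci. A locus counted for a listed gene can lie nearer to, or inside, another gene. The interval of each of the 13 lists held 1.51%. With 10 kb in place of 50 kb, 5 of 112 loci near sensory neuron markers were sham-only (4.46%, 1.92 to 10.0), and this was the only one of the 13 intervals that did not hold 1.51%. The intervals were not adjusted for the number of lists or of neighbourhood sizes read, so this one was not taken as an excess. The highest-scoring locus of each list was named by rule, and the others after their values were seen. Over the whole table, 1991 of 21900 protein-coding genes (9.09%) had a sham-only locus inside or within 50 kb.

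**Figure D4:**
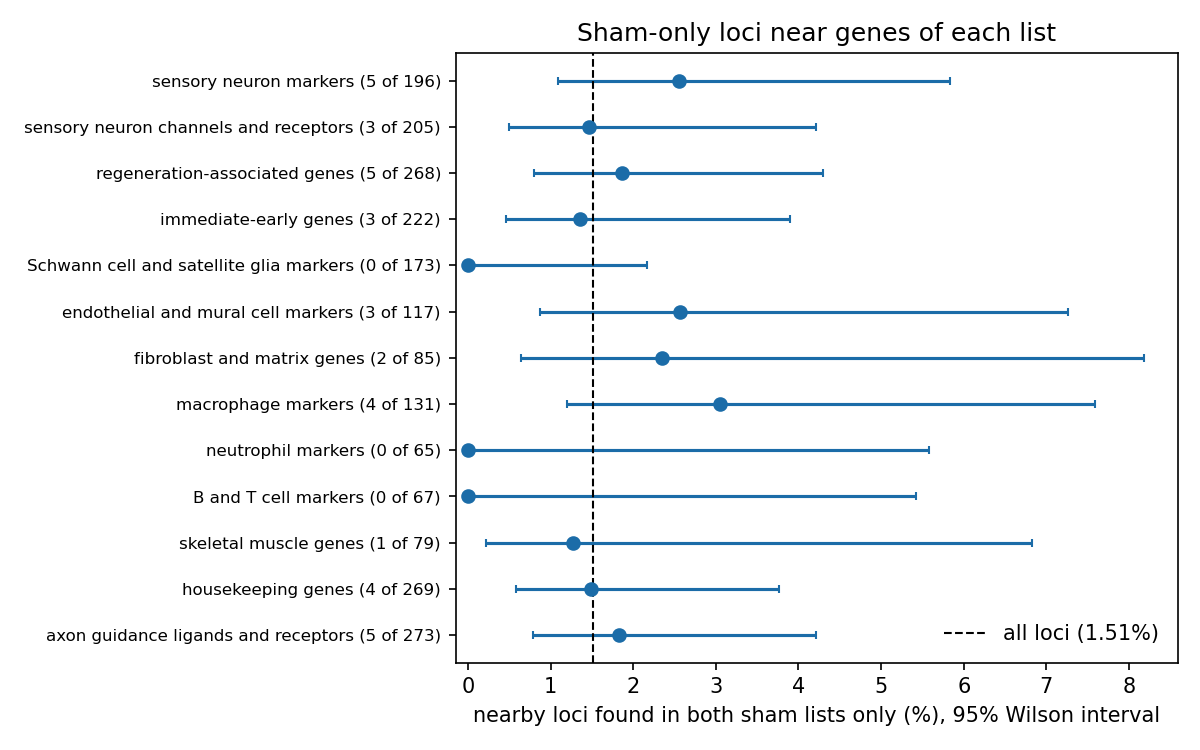
Percent of the loci near each gene list that were found in both sham lists only (points) with 95% Wilson intervals (bars), with the number of such loci and of all nearby loci beside each list name. The dashed line is the 1.51% of all loci, which every interval holds.

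Near the 22 sensory neuron markers 5 of 196 loci were sham-only (2.55%, 1.09 to 5.83), and none of the 5 had an injured summit within 1 kb. The highest was inside Ntrk2, the BDNF receptor TrkB (gene ID 18212, chromosome 13, 58841175), with scores of 4.89 in wild-type sham and 4.97 in Silc1-/- sham and 33152 bp to an injured summit. Runx1, a transcription factor of nociceptors, held a locus at chromosome 16, 92660886 (3.54 and 3.90), 25696 bp from an injured summit. In Prrxl1, a homeobox factor of sensory neurons, the locus at chromosome 14, 32631072 (3.27 and 3.75) was 3303 bp from an injured summit. Nefh, the heavy neurofilament subunit, held a locus at chromosome 11, 4940702 (4.89 and 2.52), with an injured summit at 6470 bp. Outside Isl1, a LIM homeobox factor, a locus 4388 bp away at chromosome 13, 116293882 (2.32 and 1.87) was 11414 bp from an injured summit.

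Among the 22 genes for sensory channels and receptors, 3 of 205 loci were sham-only (1.46%, 0.499 to 4.21). The highest was in Scn11a, the nociceptor sodium channel Nav1.9 (gene ID 24046, chromosome 9, 119753763 to 119825456), at 119825406, 50 bp inside an end of the gene. It scored 2.92 in wild-type sham and 4.62 in Silc1-/- sham, and the nearest injured summit was 19442 bp away. Kcnt1, a sodium-activated potassium channel, held a locus at chromosome 2, 25913321, with low scores of 2.21 and 2.10 and 70055 bp to an injured summit. In Piezo2, the touch channel, the locus (chromosome 18, 63386421, 3.24 and 1.53) had an injured summit 628 bp away.

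Near the 40 regeneration-associated genes 5 of 268 loci were sham-only (1.87%, 0.799 to 4.29), and 4 of the 5 had an injured summit within 1 kb. These 4 were in Crem, a cAMP-responsive transcription factor (chromosome 18, 3281112, 5.67 as the lower score, injured summit at 242 bp), in Sema6a, a semaphorin (chromosome 18, 47370437, 4.67, 552 bp), and 41600 bp from Atf3 and 30294 bp from Stat3, transcription factors of the injury response. The locus counted for Stat3 lay inside Cavin1, 729 bp from an end of it. The locus counted for Atf3 lay inside the long noncoding RNA gene D730003I15Rik. At the Atf3 locus (chromosome 1, 191224933) the sham scores were 3.20 and 7.13 and the wild-type injured summit 462 bp away scored 22.3. The remaining locus lay 438 bp outside Bdnf, a neurotrophin (chromosome 2, 109674262), with scores of 2.92 and 1.87 and a Silc1-/- injured summit of 4.39 at 3092 bp.

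Axon guidance genes had 5 sham-only loci of 273 (1.83%, 0.785 to 4.22). Beside Efna5, Epha4 and Sema6a, already described, they lay in Sema3e, a semaphorin that binds plexin-D1 (chromosome 5, 14180437, scores 4.20 and 4.29, injured summit at 90153 bp), and in Sema3a, a repellent of sensory axons (chromosome 5, 13537933, 2.92 and 4.97, 491 bp). Immediate-early genes had 3 of 222 (1.35%, 0.461 to 3.90). The locus 8233 bp from Ier3 (chromosome 17, 35813480, 3.56 and 11.7) was the highest of them, 4926 bp from an injured summit, and it also lay within 50 kb of Tubb5. The others lay 1403 bp from Fosb (3.09 and 3.59, injured summit at 512 bp) and 31159 bp from Junb (2.92 and 1.94, 7158 bp), genes of AP-1 subunits.

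For other cell types the numbers were as small. Macrophage markers had 4 of 131 (3.05%, 1.19 to 7.59): 35770 bp from Aif1 (lower score 8.22, injured summit at 224 bp), 22227 bp from Itgam (4.89, 402 bp) and both others in Mrc1, the mannose receptor. The locus counted for Aif1 lay 3 bases from the start site of another gene, Bag6. Of the Mrc1 loci, the locus at chromosome 2, 14261188, which is also beside the hairpin of Mir511, scored 2.92 in wild-type sham and 4.97 in Silc1-/- sham and lay 27229 bp from an injured summit. Endothelial and mural markers had 3 of 117 (2.56%, 0.876 to 7.27), the highest 48131 bp from Abcc9, a subunit of mural potassium channels (13.7 and 11.1, injured summit at 219 bp). Fibroblast and matrix genes had 2 of 85 (2.35%, 0.648 to 8.18), at Postn and 90 bp inside an end of Fbln1, which encodes fibulin-1 (chromosome 15, 85206039, 3.27 and 1.96, injured summit at 29555 bp).

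Near Schwann cell and satellite glia markers 0 of 173 loci were sham-only, which allows a share of up to 1.73%. The counts were 0 of 65 near neutrophil markers (up to 4.62%) and 0 of 67 near B and T cell markers (up to 4.48%). These limits are 3 counts over the loci; the Wilson upper limits drawn in the plot of the lists are 2.17%, 5.58% and 5.42%. Housekeeping genes had 4 of 269 (1.49%, 0.580 to 3.76), the highest 25779 bp from Rpl13a (32.2 and 20.6, injured summit at 203 bp). That locus lay 12 bases from the start site of another gene, Aldh16a1. Skeletal muscle genes, of a tissue outside the ganglion, had 1 of 79 (1.27%, 0.224 to 6.83), 17771 bp from Myod1 (4.37 and 6.27, injured summit at 434 bp). Silc1, taken to be Gm9866 of the table from general knowledge, had its nearest sham-only locus 2168 kb away, and its neighbour Sox11 had it 2057 kb away.

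Sham-only loci were spread over the genome. They made up 0.844% of loci on chromosome 19 (17 of 2014) and 1.90% on the X chromosome (46 of 2417), with the other autosomes between these values; the Y chromosome had 5 of 253. The median distance from a sham-only locus to its nearest neighbour of the class was 595964 bp, and 132 (11.2%) had another within 50 kb. Counting a locus for every gene that spans it, genes with 3 or more inside were 7: Snhg14 with 10, Aopep with 4, and Cacna2d3, Lmbr1, Mllt10, Thada and Yes1 with 3 each. Sham-only loci were 3 of 5 loci in Yes1, a SRC family kinase, 3 of 10 in Lmbr1, and 3 of 14 in Mllt10, a partner gene of leukaemia fusions. They were 3 of 19 in Cacna2d3, 3 of 20 in Thada and 4 of 28 in Aopep. Over all loci the share was 1.51%. These genes were picked for holding many sham-only loci, so high shares partly follow from that choice. All 6 in Yes1 and Lmbr1 had an injured summit within 674 bp. The 4 in Aopep, an aminopeptidase gene (chromosome 13, 62964893 to 63326096), of which 1 also lies in Fancc, differed in that respect: their nearest injured summits were 4317 to 24271 bp away, and 2 of the 4 had none within 10 kb. Their lower scores were 2.07 to 4.20. In Cacna2d3, an auxiliary calcium channel subunit (chromosome 14), lower scores were 3.54 to 5.59 and injured summits lay 231 to 2934 bp away.

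Snhg14 is a long noncoding RNA gene of the imprinted Prader-Willi region, host to arrays of repeated small nucleolar RNA genes and antisense to Ube3a (gene ID 52480, chromosome 7, 59272737 to 60450177, 1177 kb). Inside it lay 230 loci, of which 10 were sham-only (4.35%, against 1.51% of all loci, in a gene picked for this count). Another 7 were in both injured lists only and 6 in all 4 lists. Single-list loci made up most of the rest: 57 in the sham list of wild type alone, 34 in that of Silc1-/-, and 39 and 26 in the injured lists of wild type and Silc1-/-. The gene held 110 wild-type sham summits, 0.403% of that list, against 0.174% to 0.201% of the other lists. The injured summits nearest to the 10 loci were 281 to 1571 bp away, so none of the 10 was among those isolated by 10 kb. Their lower scores ran from 1.87 to 15.6 (median 3.27). Summit positions are uncertain where near-identical copies can share reads, and the part of such copies in these counts was not tested.

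**Figure D5:**
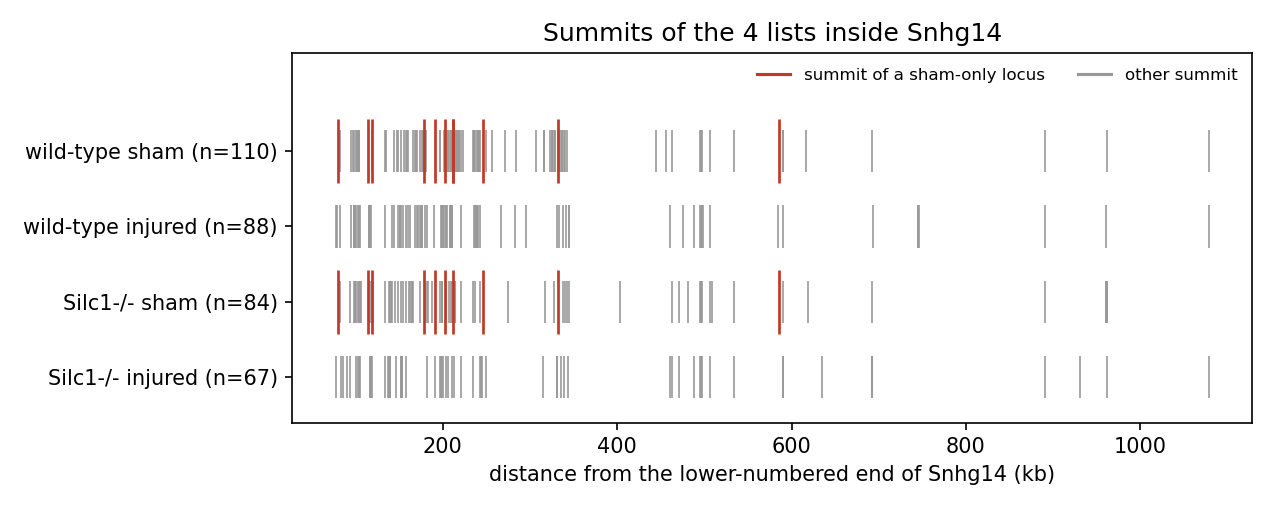
Summits of the 4 lists inside Snhg14 by distance from its lower-numbered end (kb), with those of the 10 sham-only loci in red. The first summit lies 77.6 kb from that end. Summits of all 4 lists are mostly dense and interleaved from there to 345 kb, where most of the 10 loci lie, and sparser farther on. The 10 loci span 79.6 to 585.6 kb.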

How the data were processed

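The members and gene lists were chosen with earlier results of these data known. Per the submitters' processing notes, Bowtie2, MACS2 and the mm10 build were used. The sources used here do not give versions, read filters, transposase shifts or how the 3 libraries of a group were combined. Each deposited line gives a summit and its score, the −log10 of either a p-value or a q-value. The smallest was 1.30. The files hold no read counts.

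Positions were made 1-based, summits within 200 bp chained, and a locus placed at its highest-scoring summit. Distances run from a locus's outermost summits. Genes and promoter sequences came from RefSeq tables of GRCm38.p6, the build of mm10; 1 symbol of the gene lists, Ighm, was not matched. A position in several genes was named by the shortest; counts of genes with 3 or more members took every gene spanning it. Counts of 0 were bounded at 3 counts. No test was made, since each group has 1 list.

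Genes were named by rule. First came the 12 members with the highest lower score and no injured summit within 10 kb. Next came the 8 such with none within 1 kb, whose nearest gene end, within 1 kb, was a coding one. The rest were the highest member of each gene list, genes with 3 or more members, loci beside the joining threshold, and Silc1 and Sox11. Other names are marked as chosen after their values were seen. Chaining and distances were tested on simulated data, where 3000 of 3000 planted loci kept their class. Alternatives tried were joining at 100 or 500 bp, a minimum score of 5 in all or some lists, equal list lengths and autosomes only. Other gene-end distances and gene neighbourhoods of 10 kb were also used. Gene list shares were also recomputed with only the members that had no injured summit within 1 kb. Python 3.11.15, numpy 2.4.6, pandas 2.3.3, scipy 1.17.1 and matplotlib 3.10.9 were used.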

Additional observations from a re-analysis of the deposited data

How the results depend on the processing

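As deposited there were 1181 sham-only loci, 615 with no injured summit within 1 kb and 343 with none within 10 kb. These 3 counts stayed within 1.5 times their value at joining distances of 100 and 500 bp, at equal list lengths (1087, 663 and 423) and on autosomes only. With a score of at least 5 in every list they were 420, 210 and 152, and with that score required of sham summits alone 179, 34 and 19. With it required of injured summits alone, chosen after seeing the data, they were 3082, 2276 and 1657: many sham-pair loci had injured summits with scores under 5. The share at gene ends, 24.1%, was 27.2% and 19.5% at joining distances of 100 and 500 bp. It was 29.3% with the score minimum in every list and 27.9% with it in the sham lists, and 16.4% and 32.9% for gene ends within 500 and 2500 bp. Gene list shares were recomputed for neighbourhoods of 10 kb and for members with no injured summit within 1 kb. Of these 26 shares, 7 left the interval of their list, each downwards. The second setting drops members but keeps all loci, so it could only lower a share or leave it. Under it the regeneration-associated, endothelial and mural, macrophage and skeletal muscle lists moved. No paired analysis was possible because each group has 1 list and no test was made. Unknown depth limits all counts: a site under the threshold is not thereby closed.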
